A study of Mus musculus with 8 samples.

Results

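Values are described for 6 immune genes in the heart: Lyz2, Csf1r, C1qa, C1s1, Cd4 and Cxcl12. Each was represented by 1 spotted cDNA clone, and these are 6 of the 20160 clones on the arrays. The genes were selected on their immune role together with their knockout over pool log2 ratios and their values by dye orientation in an earlier look at these same arrays. Those ratios are therefore a description of the 6 genes, and no test of them is given.

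The RNA came from hearts of 4 male mice with the genotype MFAP4-/-, 19 weeks old, on the C57BL/6N background. These mice lack microfibril-associated protein 4, a glycoprotein of the extracellular matrix that the study treats as an integrin ligand. The comparison was a single pool of heart RNA from wild-type males of the same age and background. The channel labels list 4 pooled mice, whereas the labelling protocol states 6. No wild-type mouse was hybridised singly, so the spread between wild-type mice was not measured. Each knockout heart was hybridised against the pool on 2 arrays with exchanged dyes, the red dye Cy5 and the green dye Cy3, which gives 8 arrays and 4 mice.

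The healthy mouse heart holds resident macrophages beside its muscle cells, vessels and fibroblasts. Lyz2 encodes lysozyme M, an antibacterial enzyme of macrophages and neutrophils, and Csf1r encodes the receptor for the growth factor on which macrophages depend. C1qa and C1s1 belong to the first complex of the classical complement pathway: C1q recognises its target, and the protease C1s then cuts the next components. C1q is made largely by macrophages. CD4 is the co-receptor with which helper T cells bind MHC class II, and CXCL12 is a chemokine, made by stromal and endothelial cells, that holds cells bearing its receptor CXCR4 in place. RNA of a whole heart cannot tell fewer cells of a type from less RNA per cell.

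The arrays were dim for most clones. Depending on the array, 8.92% to 35.9% of spots were more than 2 times as bright as their surroundings in the knockout channel, and 4.65% to 17.1% in the pool channel. Spot flags were absent on the arrays of mice 1 and 2 and covered between 28.2% and 43.0% of spots on those of mice 3 and 4. The 6 clones carried no flag on any of the 8 arrays and were all among the 8142 clones tested. Of the heart muscle genes chosen to check the tissue, Myh6, Actc1, Tnnt2, Tnni3, Myl2 and Mb were not named on the arrays. The 2 heart muscle genes that were measured, Mybpc3 and Myom2, were bright, at 10.3 and 7.08 times the local background as means over all arrays and both channels. Mfap4 was not named on the arrays either, so the loss of its transcript could not be examined. No clone sequence was used here, and none is printed.

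Brightness sets how much each ratio can carry. Averaged over the 8 arrays and both channels, Lyz2 stood at 2.45 times its local background, C1s1 at 1.82, Cxcl12 at 1.68, Cd4 at 1.59, C1qa at 1.56 and Csf1r at 1.44. The median of all tested clones was 1.72, and 30.8% of them exceeded 2. Only Lyz2 of the 6 genes did so.

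For Lyz2 the spot over its local background ran from 1.82 to 3.93 in the knockout channel with a median of 2.97, and from 1.59 to 2.55 in the pool channel with a median of 1.98. The knockout channel exceeded 2 on 7 of 8 arrays and the pool channel on 4. The files also give the share of a spot's pixels that exceed the background by over 2 SD. For Lyz2 the median share was 91.5% in the knockout channel and 54% in the pool channel. Most of the spot thus stood out in the knockout channel, and about as many pixels did as did not in the pool channel. The other genes had lower median shares. In the knockout and pool channels these were 56% and 30% for C1s1, and 42.5% and 23.5% for Cxcl12. They were 27% and 18.5% for Cd4, 23.5% and 18.5% for Csf1r, and 20% and 28% for C1qa.

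C1s1 was next, with a median of 2.11 times background in the knockout channel (1.29 to 2.51) and 1.69 in the pool channel (1.25 to 1.73). It exceeded 2 on 6 of 8 arrays in the knockout channel and on 0 in the pool channel. Cxcl12 had medians of 1.81 in the knockout channel (1.48 to 2.43) and 1.50 in the pool channel (1.24 to 1.78). Both complement and chemokine clones were thus visible but weak, and their ranges in the knockout and pool channels overlapped.

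Cd4 had medians of 1.78 in the knockout channel (1.31 to 2.28) and 1.44 in the pool channel (1.02 to 1.82). The 2.28 came from mouse 2 with the knockout in Cy3. On that array 0% of the spot's pixels exceeded the background by over 2 SD in either channel. Csf1r had medians of 1.62 in the knockout channel (1.21 to 1.87) and 1.32 in the pool channel (1.16 to 1.50). C1qa was level between the channels, with medians of 1.57 in the knockout channel (1.23 to 1.96) and 1.57 in the pool channel (1.24 to 1.76). Neither Csf1r nor C1qa exceeded 2 times background in either channel on any array. Before normalization these values include the unequal strength of the dyes, so the order of the channels is not yet a comparison of the samples.

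**Figure D1:**
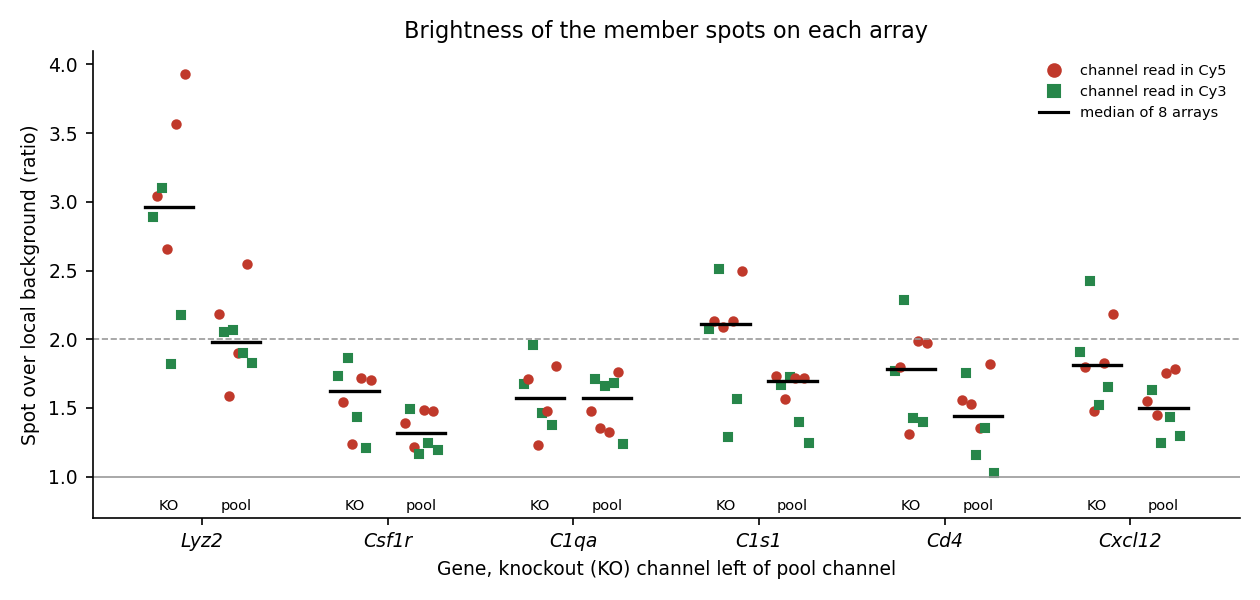
Spot brightness divided by local background brightness (y axis) for the 6 genes (x axis), with the knockout channel left of the pool channel; each symbol is 1 of 8 arrays, red circles read in Cy5 and green squares in Cy3, and bars are medians. The knockout channel of Lyz2 stands highest, with a median of 2.97, while the pool channel of Cd4 reaches down to 1.02.

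Before normalization the sign of the background-subtracted ratio went with the dye on some arrays and not on others. On the arrays of mice 3 and 4 with the knockout RNA in Cy5, the knockout spot was the brighter in 11 of 12 values of the 6 genes. With the knockout RNA in Cy3 on the other arrays of the same mice, it was the brighter in 1 of 12. On the arrays of mice 1 and 2 it was the brighter in 10 of 12 values with the knockout in Cy5 and in 12 of 12 with the knockout in Cy3. After loess normalization within each array, the values above 0 in mice 3 and 4 were 9 of 12 with the knockout in Cy5 and 5 of 12 with it in Cy3. In mice 1 and 2 they were 9 of 12 in Cy5 and 12 of 12 in Cy3. Among all spots of mice 3 and 4 with the knockout in Cy5, 17.4% and 23.8% exceeded 2 times background in the knockout channel. In the pool channel 5.70% and 4.65% did. With the knockout in Cy3 the shares were 8.92% and 9.28% in the knockout channel, and 11.3% and 13.7% in the pool channel. On each array of mice 1 and 2 the knockout share was the higher. The genes were selected on these ratios and share the arrays, so nothing is read from their counts.

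All ratios that follow are normalized log2 ratios of knockout over pool. Errors are standard errors (SE) from limma's fit over all tested clones, with n = 4 mice, each mouse being the mean of its 2 arrays. In that fit 0 of 8142 clones, 0%, passed an adjusted p of 0.05, and 0 of the 6 genes did. At an unadjusted p under 0.05 there were 936 clones, 11.5%, and 1 of the 6 genes, Cd4. Since the genes were selected on this contrast, nothing is read from either count.

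Among the macrophage genes, Lyz2 lay at 0.53, 0.20, -0.11 and -0.33 in mice 1 to 4 with the knockout in Cy5. With the knockout in Cy3 it lay at 0.29, 0.49, 0.28 and 0.12. All 4 values in Cy3 were above 0, whereas those in Cy5 were 2 above and 2 below. In mice 3 and 4 normalization had turned the sign on each array. Their background-subtracted log2 ratios before it were 1.22 and 0.83 in Cy5 and -0.21 and -0.53 in Cy3. Those of mice 1 and 2 were above 0 on each array. The normalized means of both arrays were 0.41, 0.34, 0.084 and -0.10 in mice 1 to 4, high in mice 1 and 2 and near 0 in mice 3 and 4. Over the 4 mice the log2 ratio was 0.18 ± 0.10, a fold of 1.14. It was 0.11 without mouse 1 and 0.28 without mouse 4, and reached 0.34 with median centring in place of loess and 0.43 in the authors' deposited table after centring on the median. Mice 1 and 2, without spot flags, averaged 0.38, and mice 3 and 4 averaged -0.0100; what part the flags or the arrays have in this was not tested.

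Csf1r had a like division between the mice. With the knockout in Cy5 its log2 ratios were -0.0050, 0.24, 0.28 and 0.28 in mice 1 to 4, and with the knockout in Cy3 they were 0.47, 0.54, -0.094 and -0.36. The 2 orientations thus ran opposite ways across the mice: in Cy3 mice 1 and 2 were high and mice 3 and 4 low, and in Cy5 mouse 1 was the lowest. The means of both arrays were 0.23, 0.39, 0.092 and -0.035. The log2 ratio over the 4 mice was 0.17 ± 0.091, a fold of 1.12. It averaged 0.31 in mice 1 and 2 and 0.029 in mice 3 and 4, and leaving out mouse 2 gave 0.096. With no background correction it was 0.016, with plain background subtraction 0.31 and 0.028 in the authors' deposited table.

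In the complement pair, C1qa was the only one of the 6 genes with a mean below 0. With the knockout in Cy5 it lay at -0.097, -0.67, -0.66 and 0.33 in mice 1 to 4, and with the knockout in Cy3 at 0.13, 0.17, 0.30 and -0.41. In every mouse the 2 arrays fell on opposite sides of 0. Mouse 4 had the signs of the other 3 mice turned round. The means of both arrays were 0.015, -0.25, -0.18 and -0.035, and the log2 ratio was -0.11 ± 0.082, a fold of 0.925. Without mouse 2 it was -0.067. With no background correction it was -0.040, and in the authors' deposited table it was -0.43 as the table stands and -0.25 after centring on the median.

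C1s1 lay above 0 on 7 of 8 arrays. With the knockout in Cy5 its log2 ratios were 0.47, 0.26, 0.23 and 0.57 in mice 1 to 4, and with the knockout in Cy3 they were 0.096, 0.19, -0.50 and 0.097. The single value below 0 was that of mouse 3 in Cy3, on whose array the knockout spot read 219 against a background of 170 and the pool spot 296 against 172. The means of both arrays were 0.28, 0.23, -0.13 and 0.33, so that mouse 3 stood apart from the other 3. Over the 4 mice the log2 ratio was 0.18 ± 0.096, a fold of 1.13, and without mouse 3 it was 0.28. Plain background subtraction gave 0.29 and the authors' deposited table gave 0.11. The classical pathway's recognition unit C1qa and its protease C1s1 thus had means of opposite sign, and the difference between the 2 genes was not tested.

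Cd4 had the highest mean of the 6 genes and the only one above 0 in 4 of 4 mice. With the knockout in Cy5 it lay at 0.091, 0.60, 0.32 and 1.05 in mice 1 to 4, and with the knockout in Cy3 at 0.039, 0.022, 0.16 and -0.39. Mouse 4 held both the highest and the lowest array. On its Cy5 array the knockout spot read 144 against a background of 73, while the pool spot read 126 against a background of 123. The pool signal above background was thus 3 units, and a plainly background-subtracted ratio on that array has almost no denominator. The 1.05 comes from the background model used here, which adds an offset of 50 to both channels. The means of both arrays were 0.065, 0.31, 0.24 and 0.33, and the log2 ratio was 0.24 ± 0.082, a fold of 1.18.

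The value of Cd4 depended on the background. With plain background subtraction its log2 ratio was 0.69, and with mouse 4 also left out it was 0.40. In the authors' deposited table it was 0.53 as the table stands and 0.70 after centring on the median, with a value of 3.47 on the Cy5 array of mouse 4. With no background correction it was 0.13. With the method used for the other values and mouse 4 left out it was 0.21, so all these values share a sign and differ in size.

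Cxcl12 lay above 0 on 6 of 8 arrays. With the knockout in Cy5 its log2 ratios were 0.26, 0.56, 0.13 and 0.41 in mice 1 to 4, and with the knockout in Cy3 they were 0.23, 0.24, -0.35 and -0.093. All 4 Cy5 values were above 0, and the Cy3 values were above 0 in mice 1 and 2 and below 0 in mice 3 and 4. The means of both arrays were 0.25, 0.40, -0.11 and 0.16, and the log2 ratio was 0.18 ± 0.097, a fold of 1.13. It averaged 0.33 in mice 1 and 2 and 0.025 in mice 3 and 4. Leaving out mouse 2 gave 0.099 and leaving out mouse 3 gave 0.27, while with no background correction it was 0.061. Plain background subtraction gave 0.30, and the authors' deposited table gave 0.084.

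**Figure D2:**
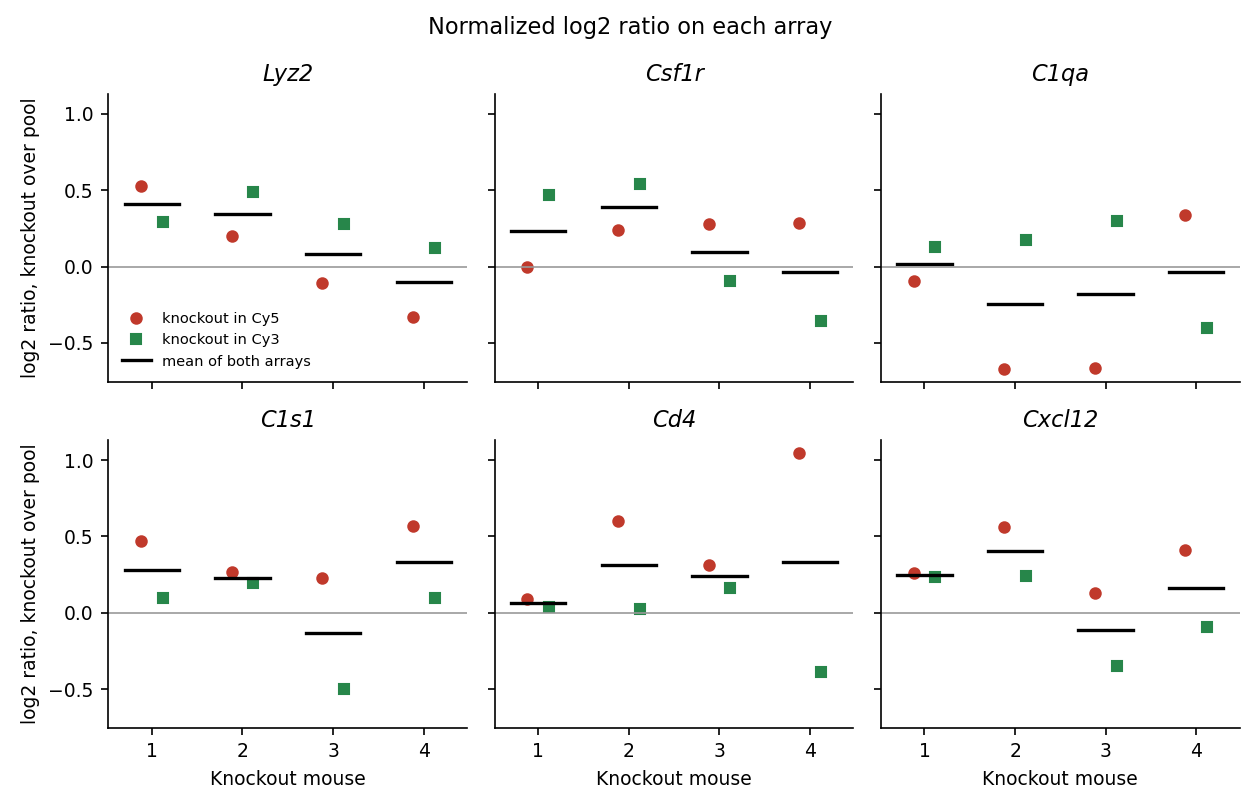
Normalized log2 ratio of knockout over pool (y axis) in each of the 4 knockout mice (x axis) for the 6 genes; red circles are arrays with the knockout RNA in Cy5, green squares those with it in Cy3, and black bars the mean of both. The 2 arrays of mouse 4 lie far apart for Cd4, at 1.05 and -0.39, and those of C1qa lie on opposite sides of 0 in every mouse.

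In order of their means the genes ran Cd4, Lyz2, C1s1, Cxcl12, Csf1r and C1qa. The first 5 lay between 0.17 and 0.24, within 1 SE of each other, so their order carries no information. By mouse, the genes above 0 numbered 6 of 6 for mouse 1, 5 for mouse 2 and 3 for each of mice 3 and 4. Their median over the genes was 0.24, 0.33, -0.013 and 0.062 in mice 1 to 4, against medians of all tested clones of 0.00049, 0.025, 0.022 and 0.041. Over the 4 mice the median of the 6 genes was 0.18, against 0.025 for all tested clones, of which 58.5% lay above 0. The central 90% of tested clones ran from -0.25 to 0.22. Ranked by size whatever the sign, Cd4 stood at the 90.7th percentile of tested clones, Cxcl12 at 81.4, Csf1r at 80.2 and C1qa at 62.1. The selection of the genes on these ratios bears on all of these figures.

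**Figure D3:**
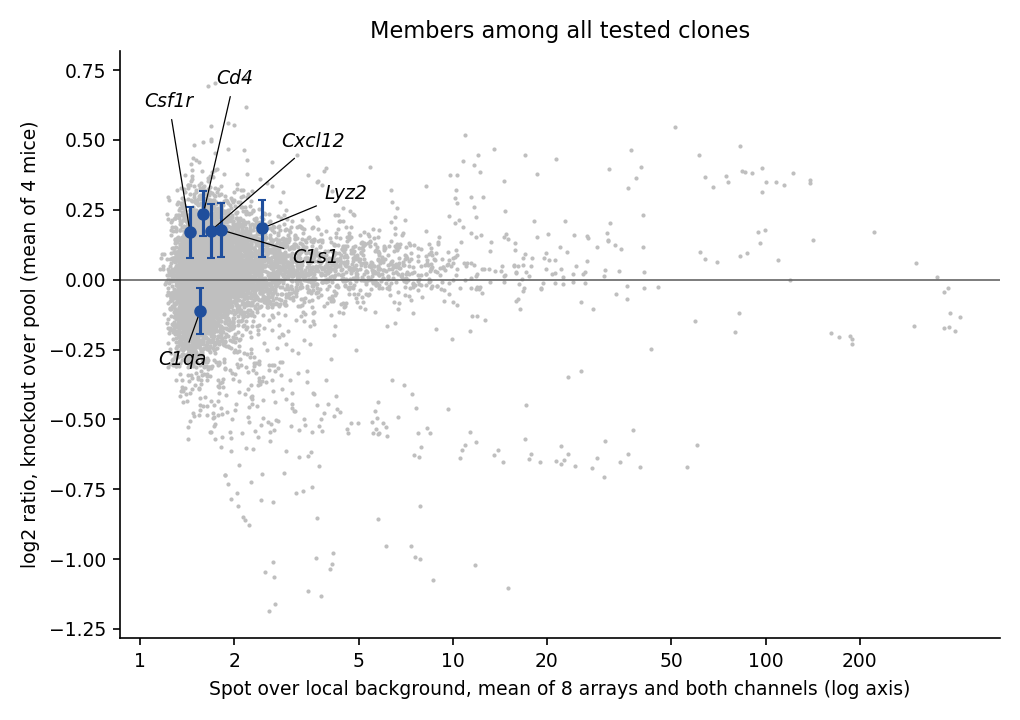
Log2 ratio of knockout over pool, mean of 4 mice (y axis), against spot brightness over local background on a log axis (x axis) for the 8142 tested clones (grey) and the 6 genes (blue, with SE). The 6 genes lie inside the cloud of tested clones, between 1.44 and 2.45 times background and between -0.11 and 0.24 in log2 ratio. Only Lyz2 of them exceeds 2 times background.

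The ratios by dye orientation were also known when the 6 genes were selected, so the differences between orientations are given for them without a test. In limma's fit of that difference over the 4 mice, 903 of 8142 clones, 11.1%, passed an adjusted p of 0.05, and 0 of the 6 genes did, from which nothing is read. The count over all clones was unstable: without mouse 1, 3 or 4 it was 143, 39 or 17. With plain background subtraction 0 of 7677 clones passed, while 2087 had an unadjusted p under 0.05.

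The log2 ratio of Cd4 averaged 0.51 in Cy5 and -0.041 in Cy3, a difference of 0.55 ± 0.24 (SE, n = 4 mice). For C1s1 the averages were 0.38 in Cy5 and -0.028 in Cy3, a difference of 0.41 ± 0.17, and for Cxcl12 they were 0.34 in Cy5 and 0.0091 in Cy3, a difference of 0.33 ± 0.16. In each of these 3 genes the Cy5 array was the higher in 4 of 4 mice, and the Cy3 average lay near 0. The size of the differences moved with the background. With plain background subtraction they were 1.51 for Cd4, 0.76 for C1s1 and 0.67 for Cxcl12. With no background correction they were 0.36 for Cd4, 0.092 for C1s1 and 0.34 for Cxcl12. Without mouse 4 the difference for Cd4 was 0.26.

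Lyz2, Csf1r and C1qa were divided otherwise. Lyz2 averaged 0.073 in Cy5 and 0.29 in Cy3, a difference of -0.22 ± 0.17. For C1qa the averages were -0.27 in Cy5 and 0.049 in Cy3, a difference of -0.32 ± 0.28. It was -0.68 without mouse 4 and -0.11 without mouse 3. Csf1r had the closest averages, 0.20 in Cy5 and 0.14 in Cy3, with a difference of 0.060 ± 0.22. The SD over the 4 mice was 0.37 in Cy5 and 0.15 in Cy3 for Lyz2, and 0.14 in Cy5 and 0.44 in Cy3 for Csf1r.

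The wider immune gene lists gave few measured genes. Of 218 genes in 9 lists (macrophage, CSF1R signalling, complement, chemokine ligands and receptors, T cell, MHC class II, B and NK cell, and neutrophil), 31 were named on the arrays and 14 were tested. None of the 14 passed an adjusted p of 0.05 for knockout over pool in limma, against 0% of all clones. These 14 include the 6 selected genes, so nothing is read from that count. The 8 tested genes that are not among the 6 had a median log2 ratio of -0.037, with 3 above 0 and 5 below.

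Of the myeloid and macrophage list, 7 of 41 genes were tested. Their median log2 ratio was 0.098, with 5 of them above 0 and 2 below, where 58.5% of all tested clones lay above 0. These 7 include Lyz2 and Csf1r, which were selected on these ratios, so nothing is read from the median or the count. Csf2ra, a receptor subunit for the growth factor GM-CSF, lay at 0.15 ± 0.13, with values from 0.017 to 0.30 over 8 other settings. Fcgr1 and Fcgr2b encode receptors for antibody. Fcgr1 lay at 0.098 ± 0.086, with values from -0.048 to 0.17 over 11 other settings. Fcgr2b was bright, at 7.45 times background, and lay at 0.046 ± 0.082, with values from -0.017 to 0.34 over those settings. Aif1, a calcium-binding protein of macrophages, lay at -0.080 ± 0.082, with values from -0.46 to -0.026. Cd52, a surface protein of leukocytes, lay at -0.063 ± 0.091, with values from -0.35 to -0.013. Cbl, which marks the CSF1 receptor for breakdown, was the only tested gene of CSF1R signalling beside Csf1r, at -0.082 ± 0.092, with values from -0.37 to 0.0058. The lowest values of Fcgr1, Aif1, Cd52 and Cbl come from the authors' deposited table as it stands, whose columns are not centred.

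Of the complement list, C1qa and C1s1 were the only 2 tested of 39 genes. Cxcl12 was the only 1 tested of 36 chemokine ligands, Cd4 the only 1 of 26 T cell genes, and 0 of 24 chemokine receptor genes were tested. S100a9, a calcium-binding protein of neutrophils and the only 1 tested of 12 neutrophil genes, lay at -0.097 ± 0.15, with values from -0.23 without mouse 1 to 0.064 without mouse 4. Genes left out by spot flags have values only with all spots kept. In that setting the complement genes lay at -0.10 ± 0.088 for Hc (complement component C5), -0.0094 ± 0.094 for Cfi (complement factor I), -0.094 ± 0.089 for Masp1 (a protease of the lectin pathway) and 0.035 ± 0.083 for Vtn (vitronectin). The macrophage genes lay at 0.071 ± 0.082 for Folr2, -0.11 ± 0.087 for Ptprc, the common leukocyte antigen CD45, -0.042 ± 0.089 for Marco and -0.014 ± 0.090 for Siglec1. The chemokine genes Cxcl14 and Ccl17 lay at -0.11 ± 0.089 and -0.0097 ± 0.093, and Cd8a, the co-receptor of killer T cells, at -0.12 ± 0.11. Pik3cg, a lipid kinase of leukocytes, lay at -0.34 ± 0.095 and above 0 in 0 of 4 mice. The clones named here with all spots kept were dim, at 1.15 to 1.33 times background.

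In the limma fit of the difference between orientations, 3 of the 14 tested immune genes passed, against 11.1% of all clones. These 14 include the 6 genes, which were selected with their values by orientation known and did not pass, so nothing is read from this count. H2-DMb1, which helps load peptides on MHC class II, the ligand of CD4, lay at -0.91 with the knockout in Cy5 and 0.89 with it in Cy3. Its difference of -1.80 ± 0.37 passed (limma adjusted p = 0.0256), with 0 of 4 mice higher in Cy5, while its mean was -0.012 ± 0.099, above 0 in 6 of 11 other settings. Fcgr1 lay at 0.48 in Cy5 and -0.28 in Cy3 (limma adjusted p = 0.0394), and Aif1 at -0.55 in Cy5 and 0.39 in Cy3 (limma adjusted p = 0.0483). These 3 genes passed in 6, 2 and 4 of 12 other settings, with adjusted p from 0.00644 to 0.146 for H2-DMb1, from 0.0237 to 0.126 for Fcgr1 and from 0.0190 to 0.184 for Aif1. H2-DMb1, S100a9 and Mmp8 were named after their values were seen.

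**Figure D4:**
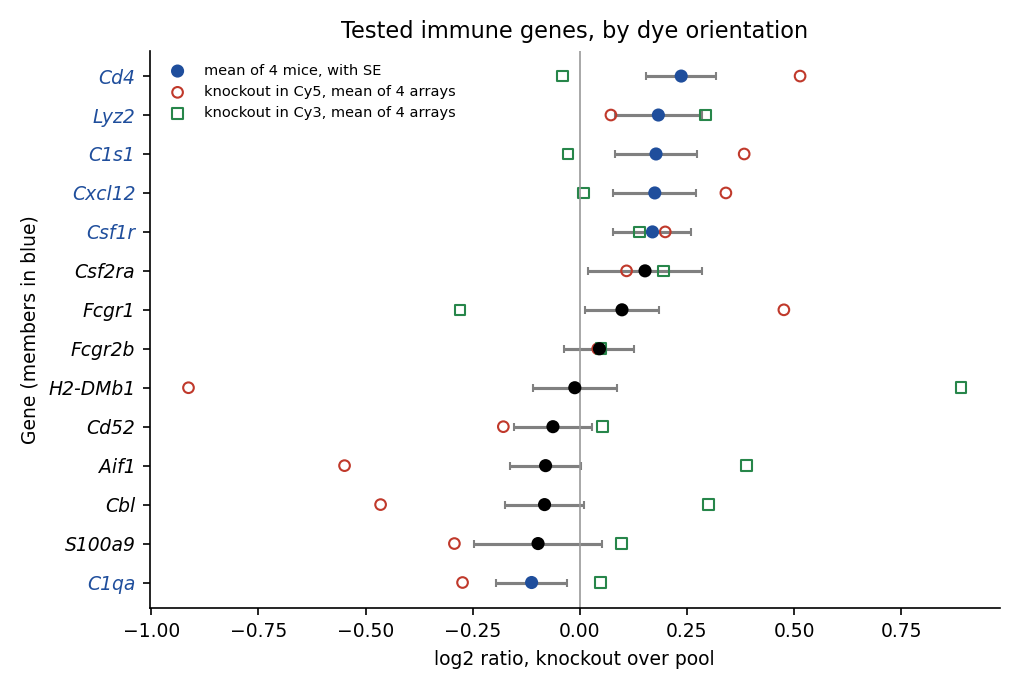
Log2 ratio of knockout over pool (x axis) for the 14 tested immune genes (y axis, the 6 described genes in blue, others in black); filled points are means of 4 mice with SE, open red circles means of the 4 arrays with the knockout in Cy5, open green squares those in Cy3. The orientations lie widest apart for H2-DMb1, at -0.91 and 0.89, around a mean of -0.012.

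Likeness of pattern was measured as the root mean square difference in log2 ratio over the 8 arrays, among the 608 other tested clones with a gene name. C1s1 was nearest to the clones of Notch3 (0.15) and Wdr1 (0.16), against a median of 0.40 over all named clones. Cxcl12 was nearest to Ebpl (0.13) and Wdr1 (0.14), and Csf1r to 1110004F10Rik (0.17) and Cdca7l (0.18). The nearest genes of Cd4 were Gadd45g (0.19) and Zfp13 (0.20), those of Lyz2 Scn2b (0.20) and Mtmr14 (0.21), and those of C1qa Lrrc75b (0.25) and Nrap (0.26). Among the 15 pairs within the 6 genes, C1s1 and Cxcl12 were closest at 0.18, and C1qa and Cd4 farthest apart at 0.63. All clones share the same arrays and dyes, so a small difference is a description of these 8 arrays.

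**Figure D5:**
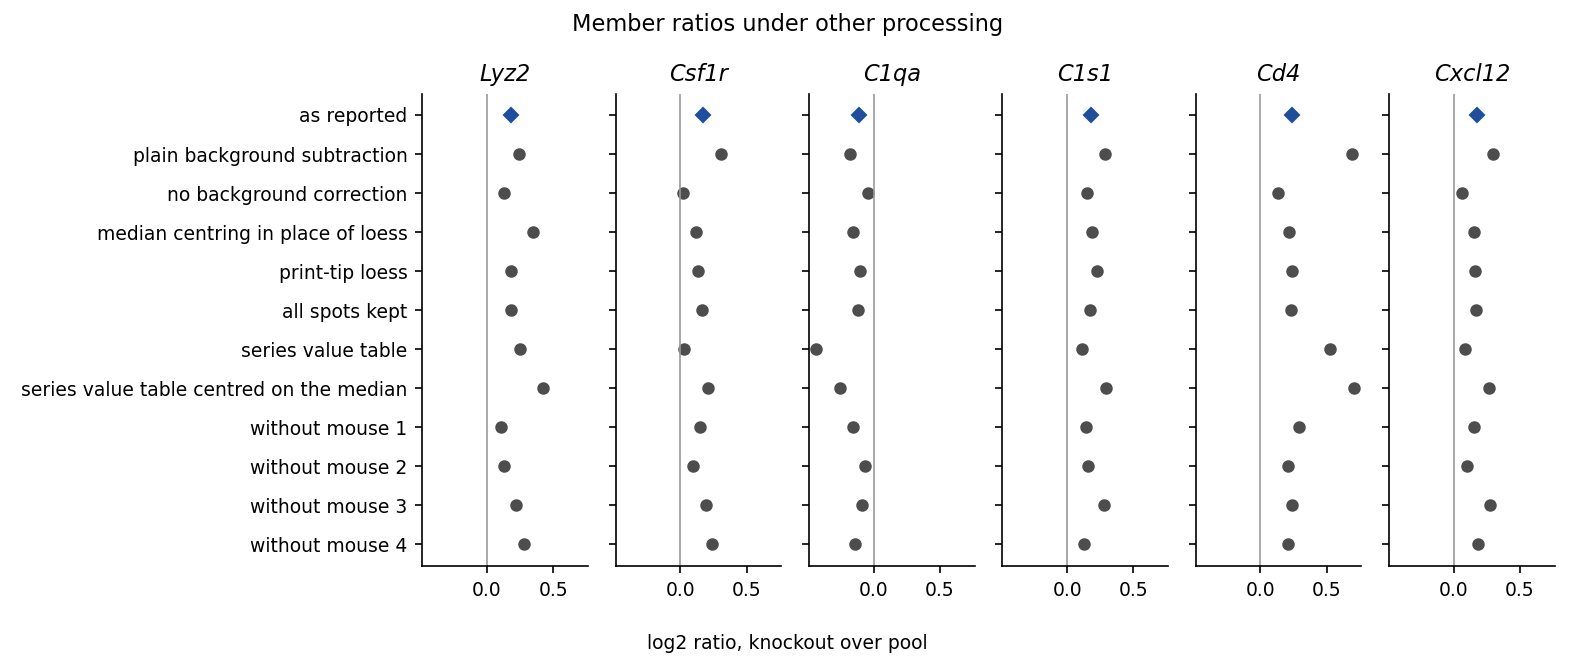
Log2 ratio of knockout over pool (x axis) for the 6 genes as reported (blue diamonds) and under other processing or with 1 mouse left out (grey circles; rows). C1qa stays below 0 and the other 5 genes above 0 in each of these settings, with Cd4 moving from 0.24 as reported to 0.69 with plain background subtraction. The genes were selected on these ratios, and all settings reuse the same arrays.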

How the data were processed

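The deposited scanner files give the median pixel intensity of each spot and its surroundings in both dyes, linear and not normalized, per the file headers. The percent of a spot's pixels above background and the spot flags (an unlabelled code, other than a measurement) are also given per the file headers. The software that read the images: not given in the sources used here. The authors' deposited value table holds a score per spot. Its columns followed the background-subtracted log2 ratio of mouse over pool (Spearman's rho at least 0.998), plus 1 constant per array. What sets the constant, and so the centring, is unknown. With the mouse in Cy5 the columns of mice 1 to 4 had medians of -0.17, -0.13, -0.31 and -0.58, and in Cy3 of -0.14, 0.024, -0.032 and -0.094. Table values beyond 20 in size were omitted.

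Background was removed with the normexp model (offset 50) and arrays were normalized singly by loess (span 0.3), leaving out flagged spots (limma 3.58.1, R 4.3.3). The labelled dyes gave the direction, knockout over pool. Values were averaged over the spots of a clone and then over the 2 arrays of a mouse. Clones with a value on all 8 arrays entered an intercept-only limma fit with Benjamini-Hochberg adjustment. The difference between orientations was fitted likewise. The pool is the only control RNA, so the test against 0 leaves out the spread between control mice. The number of arrays limits the precision.

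Clones were named through RefSeq (GRCm38.p6) by transcript or synonym: 964 and 500 of 20205 spots matched. Cd4 and Cxcl12 matched by transcript, and Lyz2, Csf1r, C1qa and C1s1 only by synonym. A gene stands for its brightest clone. The members and lists were chosen with earlier results of these data known. All clones of the members were named, further measured genes of each list that holds a member, and the 2 nearest genes per member. H2-DMb1, S100a9 and Mmp8, of lists without a member, were added after their values were seen. The fits were tested on simulated data. Alternatives covered background, normalization, flags, dim clones, the deposited table, the variance prior (trended on brightness), dye orientation and each mouse left out. Figures used matplotlib 3.10.9.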

Additional observations from a re-analysis of the deposited data

Results flagged for a closer look

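Each of the 6 genes was examined for a value far from the others over the 4 mice, over the 4 arrays with the knockout in Cy5 and over the 4 with it in Cy3. Of these 18 groups of 4 values, 2 held one. A rate of about 1 in 20 groups by chance holds for separate groups, whereas the means over the mice reuse the values of both orientations. The genes were also selected on these ratios, and the share over all tested clones was not computed. Nothing is therefore read from the count. For Csf1r with the knockout in Cy5, mouse 1 stood apart at -0.0050 from the other 3 at 0.24 to 0.28, a distance that makes up 0.844 of the whole range. For C1s1 with the knockout in Cy3, mouse 3 stood apart at -0.50 from the other 3 at 0.096 to 0.19, which makes up 0.858 of the range.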

How the results depend on the processing

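The log2 ratios of all 6 genes kept their sign under the 7 alternatives of background, normalization, flags and source of values, and with any 1 mouse left out. The genes were selected on these ratios and each setting reuses the same arrays, so nothing is read from the kept signs. With only the arrays of 1 orientation, C1qa lay at -0.27 in Cy5 and 0.049 in Cy3, C1s1 at 0.38 and -0.028, and Cd4 at 0.51 and -0.041. The difference between orientations turned in sign for Lyz2 with median centring (0.22) and with the median-centred value table (0.13). For Csf1r it was -0.044 with no background correction, -0.044 with median centring, -0.073 in the value table, and from -0.13 (without mouse 4) to 0.24 (without mouse 1) with 1 mouse left out, with -0.044 without mouse 3. Median-centring the value table, and plain subtraction without mouse 4, were chosen after seeing the data.

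Clones past an adjusted p of 0.05 for knockout over pool numbered 136 with median centring, 91 with the trended robust prior, 848 with only the Cy5 arrays and 0 to 87 with 1 mouse left out (87 without mouse 1). At an unadjusted p under 0.05 the count of 936 (469 higher, 467 lower) was 1922 with median centring (1434 higher, 488 lower), 1569 with all spots kept, 381 among clones over 2 times background, 1556 in the median-centred value table (1093 higher, 463 lower), 1538 with only the Cy3 arrays, 3392 with only the Cy5 arrays and 686 to 1081 with 1 mouse left out. In the value table as it stands it was 1209 (111 higher, 1098 lower). The 903 clones whose orientations differed (238 higher in Cy5, 665 lower) became 0 with plain subtraction, 523 with all spots kept, 228 among brighter clones, 316 in the value table (11 higher, 305 lower), 189 in the median-centred value table (10 higher, 179 lower) and 17 to 744 with 1 mouse left out; median centring gave 1093 (509 higher, 584 lower). Fewer clones than 8142 were tested with the value table (7717), plain subtraction (7677) and brighter clones (2506). More were tested with all spots kept (20160), only Cy3 (9839) or Cy5 arrays (11326), or without mouse 3 (11878) or 4 (9501). The counts of these settings are out of unlike totals, so a higher count need not be a higher share. The cause of the other shifts was not tested. Low signal over background limits 5 of the 6 genes, whose pool channel exceeded 2 times background on 0 arrays; for Lyz2 it did so on 4 of 8.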
